A study of Mus musculus with 2 samples.

Results

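The genes described here encode 9 receptors through which lymphocytes take up signals beyond that of the antigen receptor: Cd27, Cd28, Icos, Tnfrsf4 (OX40), Tnfrsf18 (GITR), Tnfrsf1b (TNFR2), Cd226 (DNAM-1), Tnfrsf13b (TACI) and Tnfrsf13c (BAFF receptor). They were chosen by name as costimulatory and TNF receptor genes, and all 9 were among the 13528 genes of the filtered count table. By family, 6 belong to the TNF receptor superfamily and 2 to the CD28 family, and Cd226 is a receptor of the immunoglobulin superfamily.

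A T cell that meets antigen needs a further signal to divide and survive, and CD28, which binds CD80 and CD86, gives it in naive cells, while ICOS appears after activation and binds ICOS ligand. CD27, OX40, GITR and TNFR2 pass signals of their TNF family ligands through TRAF adaptors to NF-kB, and regulatory T cells, which carry the transcription factor Foxp3, are known for high OX40, GITR and TNFR2. TACI and the BAFF receptor bind the B cell survival factor BAFF, and CD226 binds the nectin-like ligands PVR and nectin-2 on target cells.

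The cells are CD45+ liver cells of mice, with RNA molecules counted by unique molecular identifiers (UMIs) beside 49 antibody tags, 2 of which read members (CD28, and GITR for Tnfrsf18). The TG group has the dnTGFβRII transgene on the C57BL/6 background, in which the CD4 promoter of the mouse drives a human type II TGF-β receptor of dominant negative form, and models primary biliary cholangitis. The wild type (WT) mice were the controls. Each of 2 capture libraries pooled 2 genotypes, that of TG holding IFN-γ ARE-Del-/- as well and that of WT holding P40-/-IL-2Ra-/-, and Sample Tags told the mice apart. The labels give an age of 10 weeks for both pools, and the study's methods give a younger age. The transgene acts in cells that use the CD4 promoter, which include CD8 T cells.

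The deposited cell table named 4647 TG cells with 18498477 UMIs and 7282 WT cells with 22216379 UMIs, in 14 cell type names and 30 clusters, and median depths were 3298 and 2654 UMIs. Each genotype was 1 library, so no test was made, and genotype and library cannot be told apart in any TG to WT difference below. The libraries shared 267 cell numbers, of which 36 belonged to named cells. Mixed-lineage cells, with at least 2 UMIs of genes of 2 lineages, were kept and made up 7.70% in TG and 4.33% in WT. The names held for most lymphocytes by their markers, with exceptions. The summed level of the macrophage markers was 40.8 CPM (UMIs per 1000000 UMIs of the summed cells) in TG and 787 in WT cells named macrophage. However, at least 2 of the 3 markers in the table were at 0 in every TG cell type, while WT NKT cells held all 3. Genes can be listed at 0 in 1 genotype of the filtered table, so the TG value cannot be read against the name. Cells named monocyte carried neutrophil markers at 49190 and 29180 CPM. Cells named NK held T cell markers at 4071 CPM in TG and 1617 in WT. Red cell markers stood at 2964 CPM in WT cells named CD8aa and 1067 in WT cells named NK, and at least 1 of the 2 was at 0 in every TG cell type. The immature B cell markers summed to 313 and 576 CPM in cells named immature B, below the 436 and 717 of cells named mature B. The part of these in the results was not tested.

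Of the members, Cd28 lies on chromosome 1 at 60716800 to 60773359 (GRCm38, GENCODE annotation, plus strand) and Icos at 60977927 to 61000320 of the same strand. Tnfrsf4 (156013843 to 156016612) and Tnfrsf18 (156026164 to 156028895) are neighbours on the plus strand of chromosome 4, with 9551 bases between the end of one and the start of the other. Tnfrsf1b lies elsewhere on chromosome 4, at 145213463 to 145246870 on the minus strand. Cd27 (chromosome 6, 125232622 to 125237010) and Tnfrsf13c (chromosome 15, 82221743 to 82224369) are on the minus strand, and Tnfrsf13b (chromosome 11, 61126755 to 61149372) is on the plus strand.

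The sequence before the RefSeq start of 6 members was found in the reference (GRCm38.p6), and 3 members had no entry. Shown here, 5′ to 3′ on the strand of the gene, are those of 4 genes that were past 2-fold higher in Foxp3-positive than Foxp3-negative CD4 T cells of TG, and of both BAFF receptors. Capitals mark matches on either strand to any of 4 motifs: kappa B (GGG, any 5 bases, then CC), AP-1 (TGANTCA), RUNX (TGTGGT) and ETS (CCGGAAG). Neighbouring kappa B matches can overlap.
Tnfrsf4, chr4:156013445-156013694: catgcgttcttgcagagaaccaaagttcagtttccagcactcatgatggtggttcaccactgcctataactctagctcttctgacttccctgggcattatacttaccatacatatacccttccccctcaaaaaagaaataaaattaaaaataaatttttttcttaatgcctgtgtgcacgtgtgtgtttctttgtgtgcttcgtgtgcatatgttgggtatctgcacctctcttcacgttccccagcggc
Tnfrsf18, chr4:156026072-156026163, the bases outside the annotated gene: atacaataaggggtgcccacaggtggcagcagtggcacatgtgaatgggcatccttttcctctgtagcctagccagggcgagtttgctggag
Tnfrsf1b, chr4:145246871-145247120, minus strand: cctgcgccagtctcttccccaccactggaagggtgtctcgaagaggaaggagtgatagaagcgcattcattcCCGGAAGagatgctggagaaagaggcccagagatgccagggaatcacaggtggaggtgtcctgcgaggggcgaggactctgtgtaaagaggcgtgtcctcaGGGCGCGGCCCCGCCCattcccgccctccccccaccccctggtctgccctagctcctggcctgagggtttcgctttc
Cd27, chr6:125237028-125237277, minus strand: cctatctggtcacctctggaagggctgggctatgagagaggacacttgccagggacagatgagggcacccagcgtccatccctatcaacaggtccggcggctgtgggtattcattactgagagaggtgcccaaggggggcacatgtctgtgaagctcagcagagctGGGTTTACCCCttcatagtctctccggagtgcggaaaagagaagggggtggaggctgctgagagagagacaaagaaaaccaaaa
Tnfrsf13b, chr11:61126505-61126754: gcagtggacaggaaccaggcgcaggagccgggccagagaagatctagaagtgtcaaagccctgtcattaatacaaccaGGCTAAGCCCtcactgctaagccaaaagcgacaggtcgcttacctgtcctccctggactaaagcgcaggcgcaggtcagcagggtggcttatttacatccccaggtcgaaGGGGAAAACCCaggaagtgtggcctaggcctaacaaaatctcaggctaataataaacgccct
Tnfrsf13c, chr15:82224381-82224630, minus strand: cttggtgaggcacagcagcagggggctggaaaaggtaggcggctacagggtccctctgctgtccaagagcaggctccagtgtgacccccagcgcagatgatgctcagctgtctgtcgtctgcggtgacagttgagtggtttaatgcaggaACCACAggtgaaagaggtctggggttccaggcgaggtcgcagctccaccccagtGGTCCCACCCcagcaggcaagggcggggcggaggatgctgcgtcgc
The windows of Tnfrsf4 and Tnfrsf18 held no match to the 4 motifs, that of Tnfrsf1b held kappa B and ETS matches, and that of Cd27 kappa B matches. Both BAFF receptor windows held the kappa B letters, as did 45.8% of the 32851 windows of all genes. AP-1 letters stood in 6.75%, RUNX letters in 14% and ETS letters in 6.91% of them. The Tnfrsf4 window had a GC content of 42.8% and that of Tnfrsf1b 62.8%, against a median of 52.4% over all windows. A match describes the letters and not a binding site.

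Levels were taken as CPM of the UMIs summed over the cells of a type, with exact 95% Poisson intervals, which cover counting error only. Each gene was compared with itself across cell types, over the 9 types with at least 50 cells in both genotypes. Of 72 neighbouring pairs of types in the order of levels, 41 had TG and WT values that overlapped, and 31 were apart. The same count was not made over all genes, so it only describes how far these orders can be read.

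Icos and Cd28, the CD28 family members, were T cell genes with different orders. Icos was at 488 CPM in TG and 328 in WT CD4 T cells, 333 and 286 in NKT cells, and 102 and 153 in CD8ab T cells. γδ T cells stood above these at 579 CPM (405 to 801) in the 17 TG cells and 717 (647 to 793) in the 192 WT cells, and the TG interval reached that of TG CD4 T cells. In CD8aa T cells Icos was at 15.9 CPM (9.81 to 24.2) in TG and had 11 UMIs in 194 WT cells, below NK cells at 36.8 and 48.6 CPM. Cd28 was at 323 and 311 CPM in CD4 T cells and 287 and 318 in NKT cells, and these overlapped. It was at 126 and 210 CPM in CD8ab T cells and at 16.6 and 49.1 in CD8aa T cells, so CD8aa T cells had the lowest Cd28 and Icos of the T cell classes in both genotypes.

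Cd226, a receptor that assists killing by NK and CD8 T cells, was highest in NKT cells at 244 CPM in TG and 267 in WT. CD8aa T cells followed at 195 and 211, NK cells at 142 and 138, CD8ab T cells at 118 and 96.9, and CD4 T cells at 92.3 and 63.7. B cells of either kind held at most 16.4 CPM. CD8aa T cells thus had higher Cd226 than CD8ab T cells in each genotype, the reverse of Cd28.

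Cd27, a receptor of resting and memory lymphocytes, was at 183 and 104 CPM in CD4 T cells, 137 and 129 in CD8aa T cells, 119 and 126 in NKT cells and 94.5 and 114 in CD8ab T cells. The ranges of CD4 and CD8aa T cells overlapped. Tnfrsf18 was shared by 4 classes, with CD4 T cells at 251 and 90.9, NKT cells at 180 and 175, CD8aa T cells at 131 and 129 and NK cells at 99.0 and 136 CPM. Tnfrsf4 was highest in CD4 T cells, at 176 CPM (149 to 207) in TG and 34.4 (26.7 to 43.7) in WT, with NKT cells next at 24.4 and 7.27, CD8ab T cells at 11.5 and 5.55, and the other compared types at 8.63 or less. Tnfrsf1b crossed lineages. Monocytes held 189 and 182 CPM and macrophages 183 and 90.0, while CD8aa T cells held 131 and 63.6, CD4 T cells 121 and 38.0, and NK cells 108 and 105.

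**Figure D1:**
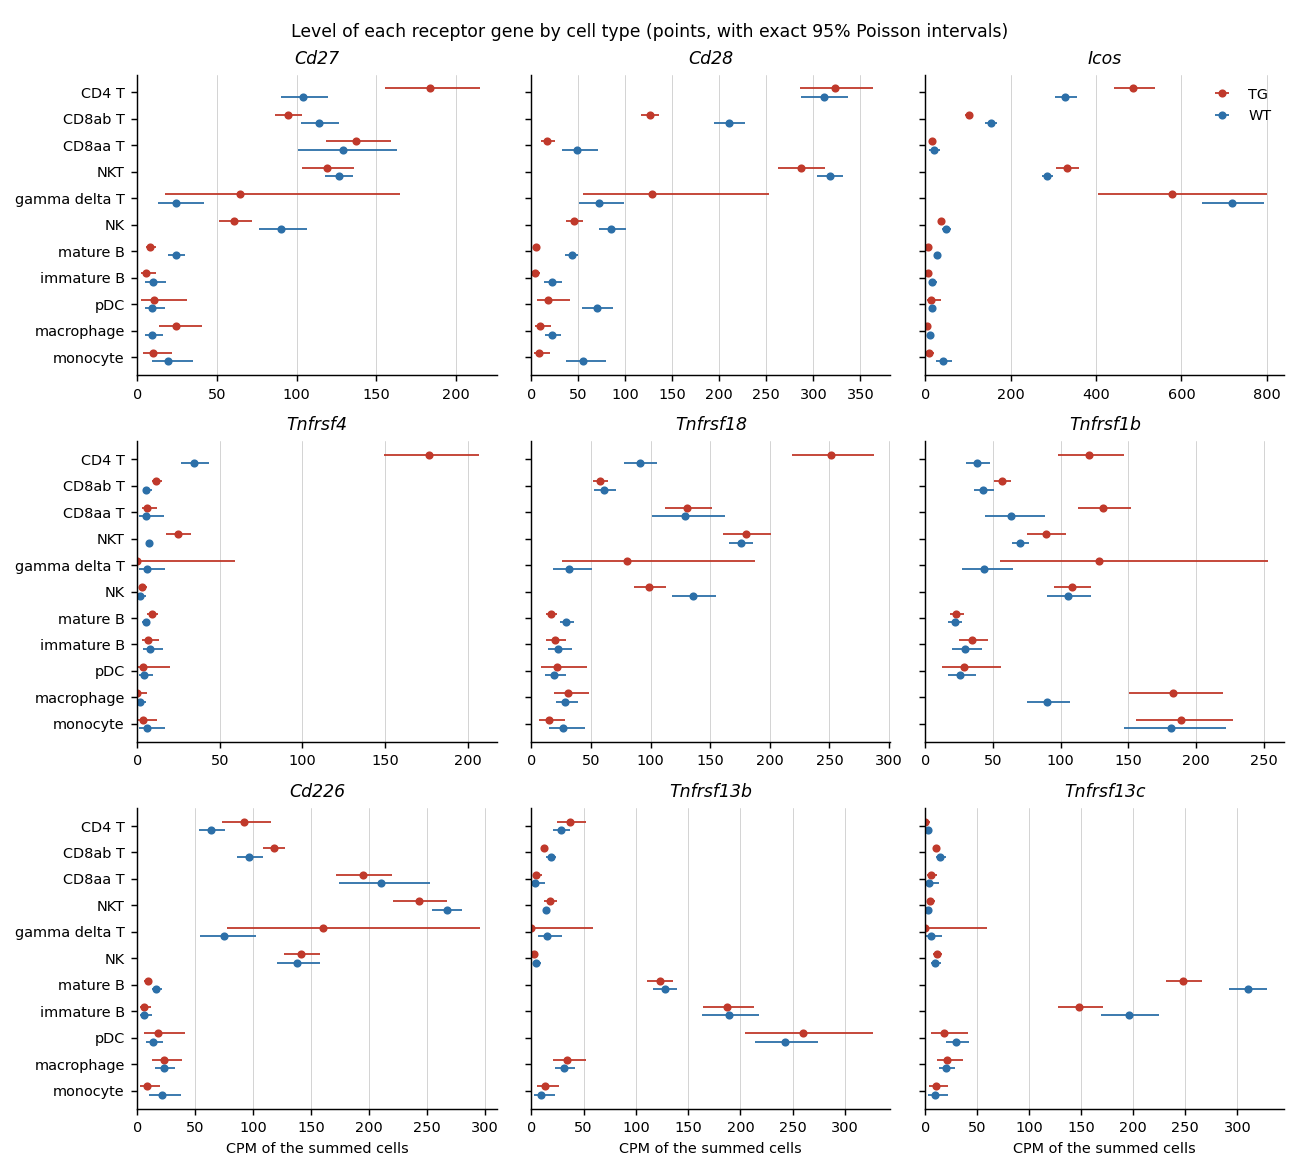
Level of each of the 9 genes by cell type in TG (red) and WT (blue) cells, as CPM of the summed cells with exact 95% Poisson intervals (each panel has its own axis from 0). Tnfrsf4 stood out in TG CD4 T cells at 176 CPM, and the B cell receptors Tnfrsf13b and Tnfrsf13c were highest in pDC and mature B cells. γδ T cells (17 in TG) and pDC (46 in TG) rest on few TG cells.

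The BAFF receptors had different orders in the B cell classes as named. Tnfrsf13c was highest in mature B cells at 248 CPM in TG and 310 in WT, with immature B cells at 148 and 196, and no other type with 50 cells in a genotype passed 29.5 CPM. Tnfrsf13b had the opposite order, with 187 and 189 CPM in immature B cells and 123 and 127 in mature B cells. Plasmacytoid dendritic cells (pDC) held the most Tnfrsf13b, at 260 CPM (204 to 327) in 46 TG cells and 243 (214 to 275) in 219 WT cells, and little Tnfrsf13c, at 17.8 and 29.5. Tnfrsf13b therefore took 33.1% (30.5 to 35.8) of the summed UMIs of both genes in TG mature B cells and 29.1% (26.9 to 31.5) in WT, 55.9% and 49.1% in immature B cells, and 93.6% and 89.2% in pDC (exact binomial 95% intervals). Cells with UMIs of both genes made up 15.1% and 12.4% of mature B cells and 31.6% and 31.7% of immature B cells. Immature B cells were deeper, with medians of 5965 UMIs in TG and 4426 in WT, against 2923 and 2044.5 in mature B cells. The part of depth in the shares of cells with both genes was not tested.

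The comparison of TG with WT asked which of these receptors differ in the livers of mice with the dominant negative receptor. Log2 ratios of CPM are given with exact conditional binomial 95% intervals, and a gene was counted in a cell type with at least 20 UMIs over both genotypes and called past 2-fold beyond 1 or -1. Of 81 pairs of a member and a cell type, 65 were counted and 17 were past 2-fold, with 8 higher and 9 lower in TG. Over all genes 4.75 to 10.6% were past 2-fold, by cell type. The 17 became 10 with each cell thinned to 1000 UMIs, 11 without mixed-lineage cells and 9 without the largest cluster of each type.

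In CD4 T cells 3 of 8 counted members were past 2-fold, all higher in TG, beside 8.69% of all genes either way and 5.41% higher. Tnfrsf4, with 149 UMIs in 238 TG cells and 67 in 734 WT cells, had a log2 ratio of 2.36 (1.93 to 2.80). A UMI of it was found in 26.1% of TG and 6.54% of WT cells, against 2.15% and 1.00% of mature B cells, and the 3 TG cells with most held 24.2% of its TG UMIs. At 1000 UMIs per cell the shares were 11.3% and 3.00% in CD4 T cells. Tnfrsf1b was at 1.67 (1.22 to 2.12) and Tnfrsf18 at 1.46 (1.17 to 1.76). Cd27 was at 0.82 (0.50 to 1.12), Icos at 0.57 (0.39 to 0.75) and Cd226 at 0.54 (0.11 to 0.96), under 2-fold but with intervals above 0. Cd28 was at 0.05 (-0.16 to 0.26). The median over the 8 members was 0.69, beside 0.08 over all genes.

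The CD4 T cells of the genotypes lay in different clusters. Cluster 6 held 24.4% of TG and 54.1% of WT cells, cluster 9 55.5% and 37.1%, and cluster 21 20.2% and 8.86%, and the comparison within each was added after seeing the data. Within cluster 9, 1 of 8 counted members was past 2-fold, beside 8.12% of all genes. This was Tnfrsf4, at 65.2 and 21.5 CPM (1.60, 0.68 to 2.57), while Tnfrsf18 was at 0.62 (0.13 to 1.11), Tnfrsf1b at 0.60 (-0.19 to 1.38) and Icos at -0.11 (-0.38 to 0.16). Within cluster 6, with 58 TG and 397 WT cells, 3 of 6 were past 2-fold, beside 14.3% of all genes either way and 5.69% higher. Cd226 was at 1.39 (0.22 to 2.48) from 11 and 24 UMIs, and Tnfrsf18 at 1.13 (0.20 to 1.99) from 16 and 42. Tnfrsf13b was at -1.34 from 2 and 29, with an interval across 0 (-4.45 to 0.64). Tnfrsf4 and Tnfrsf1b had too few UMIs there to be counted.

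In NKT cells Tnfrsf4 alone of 9 counted members was past 2-fold, at 1.74 (1.12 to 2.37) from 43 UMIs in 446 TG and 48 in 2232 WT cells, beside 6.71% of all genes. Cd28, Icos, Cd27, Tnfrsf18 and Cd226 lay between -0.15 and 0.22 there. In CD8ab T cells 1 of 9 was past 2-fold, again Tnfrsf4, at 1.05 (0.26 to 1.92) from 61 and 17 UMIs, beside 7.2% of all genes, and other settings gave it 0.45 to 1.05. The CD4 T cell markers Cd4 and Cd40lg were higher in TG in both classes, summing to 786 and 277 CPM in NKT cells and 203 and 110 in CD8ab T cells, and their part in the Tnfrsf4 values was not tested. Cd28 was at -0.74 (-0.90 to -0.58) and Icos at -0.59 (-0.77 to -0.40), lower in TG, while Tnfrsf1b at 0.40 and Cd226 at 0.28 were higher. In CD8aa T cells 2 of 6 were past 2-fold, beside 7.83% of all genes, with Cd28 at -1.56 (-2.44 to -0.70) and Tnfrsf1b at 1.05 (0.52 to 1.61). The class differed in its makeup, with the γδ T cell gene Trdc at 95.1 CPM in TG and 855 in WT and Cd4 at 113 and 10.9. Without cells with a Trdc UMI, which left 390 TG and 112 WT cells, Cd28 was at -1.84 (-2.81 to -0.87) and Tnfrsf1b at 0.84 (0.20 to 1.54), so 1 of 6 was past 2-fold, beside 10.4%. No member of 7 was past 2-fold in NK cells, where 8.23% of all genes were. Cd28 there was at -0.92 (-1.30 to -0.54) and Cd27 at -0.57 (-0.91 to -0.22), and Tnfrsf1b and Cd226 were at 0.04 and 0.03. The makeup of the cells named NK differed, with T cell markers at 4071 CPM in TG and 1617 in WT, and its part in these ratios was not tested. Red cell markers were at 1.31 and 1067 CPM, but 1 of the 2 was listed at 0 in TG, so these values cannot be compared.

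**Figure D2:**
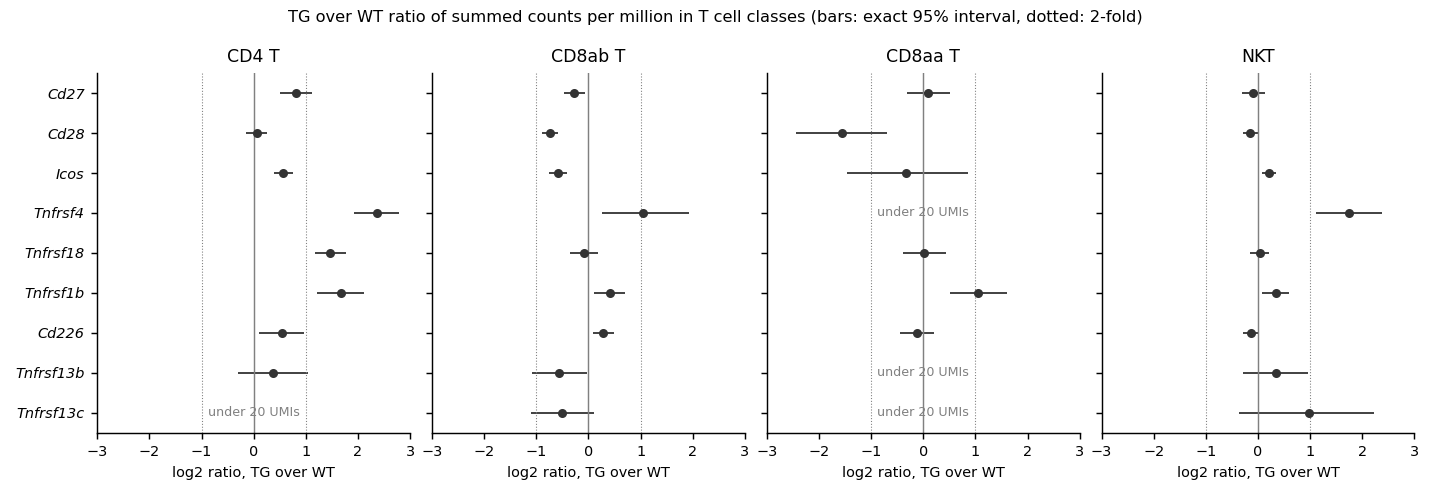
Log2 ratio of TG over WT CPM for each gene in 4 T cell classes, with exact 95% intervals (line at 0, dotted lines at 2-fold). Tnfrsf4 lies right of 2-fold in CD4, CD8ab and NKT cells, with 2.36, 1.05 and 1.74, and Cd28 lies left of 0 in CD8ab and CD8aa T cells, with -0.74 and -1.56.

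The CD4 T cells were then split by a Foxp3 UMI, which marks regulatory T cells but leaves shallow Foxp3 cells among the negatives. Such a UMI was found in 42 of the 238 cells in TG (17.6%) and 77 of the 734 in WT (10.5%), and cluster 21 held 41 and 58 of these. In TG 7 of 8 counted members were past 2-fold between positive and negative cells, with 6 higher and 1 lower, beside 17.9% of all genes either way and 7.74% higher. In WT 5 of 8 were past 2-fold, all higher, beside 18.9% either way and 7.41% higher. Tnfrsf4, Tnfrsf1b and Tnfrsf18 had large ratios in both genotypes. Tnfrsf4 was at 604 against 69.5 CPM in TG, a log2 ratio of 3.12 (2.61 to 3.65), and at 149 against 19.2 in WT, a ratio of 2.95 (2.22 to 3.69). Tnfrsf1b was at 397 against 51.8 CPM in TG (2.94) and 144 against 23.9 in WT (2.60), and Tnfrsf18 at 651 against 151 (2.11) and 289 against 64.6 (2.16).

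Icos was also higher in Foxp3-positive cells, at 1036 against 351 CPM in TG and 967 against 243 in WT, with log2 ratios of 1.56 (1.27 to 1.85) and 1.99 (1.75 to 2.23). Cd27 had 2.02 (1.55 to 2.49) in TG and 0.93 (0.40 to 1.43) in WT. Tnfrsf13b, better known from B cells, was at 2.28 (1.17 to 3.41) in TG from 17 and 14 UMIs (0.64 at 1000 UMIs per cell) and at 1.07 (0.01 to 2.02) in WT. Cd226 went the other way, at -1.13 (-2.40 to -0.07) in TG from 8 and 70 UMIs and -0.60 (-1.70 to 0.33) in WT. Cd28 was at -0.16 and -0.07, with both intervals across 0. The CD28 family members therefore parted, with Icos higher in Foxp3-positive cells and Cd28 not separated.

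**Figure D3:**
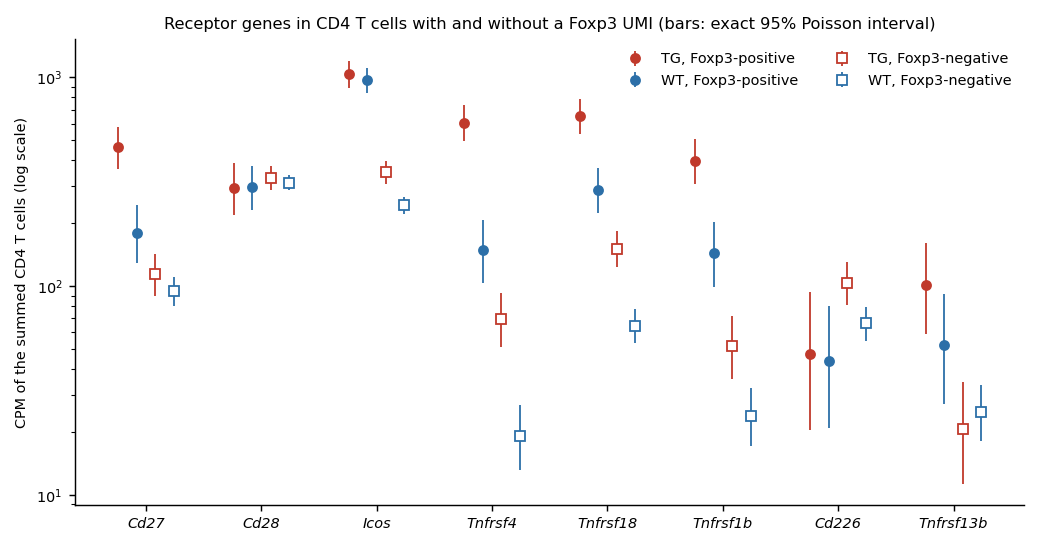
Level of 8 of the genes in CD4 T cells with a Foxp3 UMI (filled) and without one (open) in TG (red) and WT (blue), as CPM on a log axis with exact 95% Poisson intervals. Tnfrsf4 ran from 604 CPM in TG Foxp3-positive cells to 19.2 in WT Foxp3-negative cells, while Cd28 stayed between 296 and 330. Tnfrsf13c is left out, at 0 in TG.

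Since the Foxp3-positive share was larger in TG, the genotypes were also compared within each side, a comparison chosen after seeing the data. Among Foxp3-positive cells 4 of 7 counted members were past 2-fold, all higher in TG, beside 11.8% of all genes either way and 6.2% higher. Tnfrsf4 was at 2.02 (1.45 to 2.63), Tnfrsf1b at 1.46 (0.84 to 2.11), Cd27 at 1.36 (0.80 to 1.95) and Tnfrsf18 at 1.17 (0.72 to 1.64), while Icos at 0.10 and Cd28 at -0.01 had intervals across 0. Among Foxp3-negative cells 3 of 8 were past 2-fold, all higher in TG, beside 9.47% either way and 5.36% higher, with Tnfrsf4 at 1.86 (1.18 to 2.54), Tnfrsf18 at 1.22 (0.82 to 1.62) and Tnfrsf1b at 1.12 (0.42 to 1.80). Of these cells 131 of 196 in TG were in cluster 9 and 58 in cluster 6, against 257 and 393 of 657 in WT. Tnfrsf4, Tnfrsf18 and Tnfrsf1b were past 2-fold on both sides, and Cd27 was at 0.27 (-0.14 to 0.67) on the negative side. Within cluster 21, which had 48 TG and 65 WT cells, 2 of 7 were past 2-fold, both higher in TG, beside 11% either way and 6.06% higher. Tnfrsf4 was at 585 and 191 CPM (1.62), Tnfrsf18 at 636 and 303 (1.07), and Tnfrsf1b at 359 and 181 (0.99). Of 7 regulatory T genes counted there 1 was past 2-fold higher and 1 lower in TG, beside the same shares, with a median log2 ratio of -0.21. Foxp3 was at 923 and 953 CPM, and Il2ra, the IL-2 receptor alpha chain, at 662 and 235. Ikzf2 was at 1257 and 826, Ctla4 at 405 and 469, Ikzf4 at 46.2 and 63.6, Nt5e at 82.1 and 132 and Itgae at 15.4 and 166.

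Single cells held several of the receptors. At least 3 of Icos, Tnfrsf4, Tnfrsf18 and Tnfrsf1b were found in 26 of 42 TG Foxp3-positive cells (61.9%, 45.6 to 76.4, exact binomial interval) and in 18 of 77 WT cells (23.4%, 14.5 to 34.4). Among Foxp3-negative cells the shares were 6.12% and 1.52%, in mature B cells 0.281% and 0.268%. Depth differed, with median counts of 3674 and 2712 UMIs per Foxp3-positive cell, and at 1000 UMIs per cell the shares were 16.7% and 2.60%. The 4 genes were named after their levels were seen.

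In the CD8 lineage cluster 2, which is the CD8aa class, was set against the CD8ab cluster 7. The study described costimulatory molecules in CD8aa and proliferating CD8ab cells of TG, so the direction of such genes here is no independent evidence. Cluster 7 was a cycling cluster with Mki67 at 1127 CPM in TG and 1035 in WT, against 27.2 and 3.64 in cluster 2, and it also held Cd4 at 249 and 165 CPM. Its Cd8b1 was at 413 and 443 CPM, against 1112 and 1242 in cluster 4, also named CD8ab. Its Cd8a was at 339 and 262 CPM, against 984 and 1104 in cluster 2. In TG 7 of 9 counted members were past 2-fold, with 2 higher and 5 lower in cluster 2, beside 25.4% of all genes either way, 14.7% higher and 10.7% lower. Icos was at 15.9 against 143 CPM, a log2 ratio of -3.17 (-3.88 to -2.54), Cd28 at 16.6 against 117 (-2.81) and Tnfrsf4 at 6.04 against 16.5 (-1.45). Cd27, at 137 against 55.4, and Tnfrsf1b, at 131 against 52.9, were both at 1.31, and Tnfrsf18 at 0.96 and Cd226 at 0.69 were under 2-fold with intervals above 0. Tnfrsf13c was lower in cluster 2 too, at -1.82 (-3.21 to -0.66). Tnfrsf13b was at -1.19 from 6 and 25 UMIs, with an interval across 0 (-2.77 to 0.13). Cluster 7 carried the B cell gene Cd79a at 144 CPM against 74.0. In WT 5 of 8 were past 2-fold, 1 higher and 4 lower, beside 27.2% either way and 12.6% lower, with Icos at -4.04 (-5.05 to -3.18), Cd28 at -2.17 and Cd27 at 1.01. At 1000 UMIs per cell the 7 of TG became 3, Icos at -3.63, Cd28 at -3.53 and Tnfrsf1b at 1.22, and Cd27 at 0.997 fell under 2-fold. Cluster 2 had low Cd28 and Icos in both genotypes.

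Cluster 7 was also set against another CD8ab cluster, a comparison added after seeing the data. Against cluster 4, which had little Mki67 (11.1 and 1.91 CPM), 5 of 9 counted members were past 2-fold in TG, 4 of them higher, beside 31.5% of all genes either way and 22.6% higher. In WT 4 of 8 were, all higher, beside 28.3% and 18.7%. Tnfrsf1b was at 1.63 (0.68 to 2.67) in WT and 0.56 (-0.06 to 1.22) in TG, and Cd28 at 0.49 (0.18 to 0.79) in WT and -0.45 (-0.77 to -0.12) in TG. Icos was at 143 against 65.1 CPM in TG (1.14, 0.69 to 1.61) and at 328 against 60.1 in WT (2.45, 2.05 to 2.86). Cd27 was lower in cluster 7, at -1.28 (-1.67 to -0.89) in TG (-0.07 at 1000 UMIs per cell) and -0.74 (-1.22 to -0.28) in WT, and Tnfrsf18 was higher at 1.14 and 1.04. Cd226 was higher too, at 1.13 and 0.86, and Tnfrsf13c, low in both clusters, was at 1.75 (0.29 to 3.68) and 1.80 (0.67 to 3.07). Genes of other cells were higher in cluster 7 than in cluster 4 as well, with Cd79a at 144 against 65.1 CPM in TG and 182 against 11.4 in WT, Foxp3 at 17.4 against 1.39 and 53.3 against 0.953, and Cd4 at 249 against 38.8 and 165 against 14.3. Their part in these differences was not tested.

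The TG to WT difference of CD8ab T cells was not the same in every cluster, and the clusters themselves had different shares. Cluster 4 held 14.2% of TG and 44.3% of WT CD8ab cells, cluster 7 31.3% and 16.1%, and cluster 12 24.4% and 8.91%. Within cluster 7, 3 of 9 members were past 2-fold, 2 of them lower in TG, beside 8.07% of all genes either way and 3.22% lower. Icos was lower in TG at -1.20 (-1.42 to -0.97), Tnfrsf13b was at -1.37 from 25 UMIs each, and Tnfrsf4 was at 1.37 (0.12 to 2.90) from 40 and 6 UMIs. Cd28 in cluster 7 was at 117 and 222 CPM, a ratio of -0.93 (-1.19 to -0.66), with Foxp3 at 17.4 and 53.3 CPM. Within cluster 12, 3 of 7 were past 2-fold, all lower in TG, beside 12.6% either way and 3.85% lower. Cd28 was at 73.5 and 319 CPM (-2.12, -2.66 to -1.58), Cd27 at 54.5 and 187 (-1.78, -2.44 to -1.11), and Tnfrsf18 at -1.46 from 17 and 14 UMIs. The makeup of cluster 12 differed as well, with the NK receptor gene Klrb1c at 150 CPM in TG and 18.2 in WT, Trdc at 250 and 100 and Cd8b1 at 942 and 1443. Within cluster 4 Cd28 was at 159 and 158 CPM, a ratio of 0.01 (-0.35 to 0.36), and 1 of 7 was past 2-fold, Tnfrsf1b at 1.54 (0.53 to 2.62), beside 8.4%. No member of 6 was past 2-fold in cluster 13, beside 8.83%, and Cd28 was at -0.62 (-0.99 to -0.26).

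**Figure D4:**
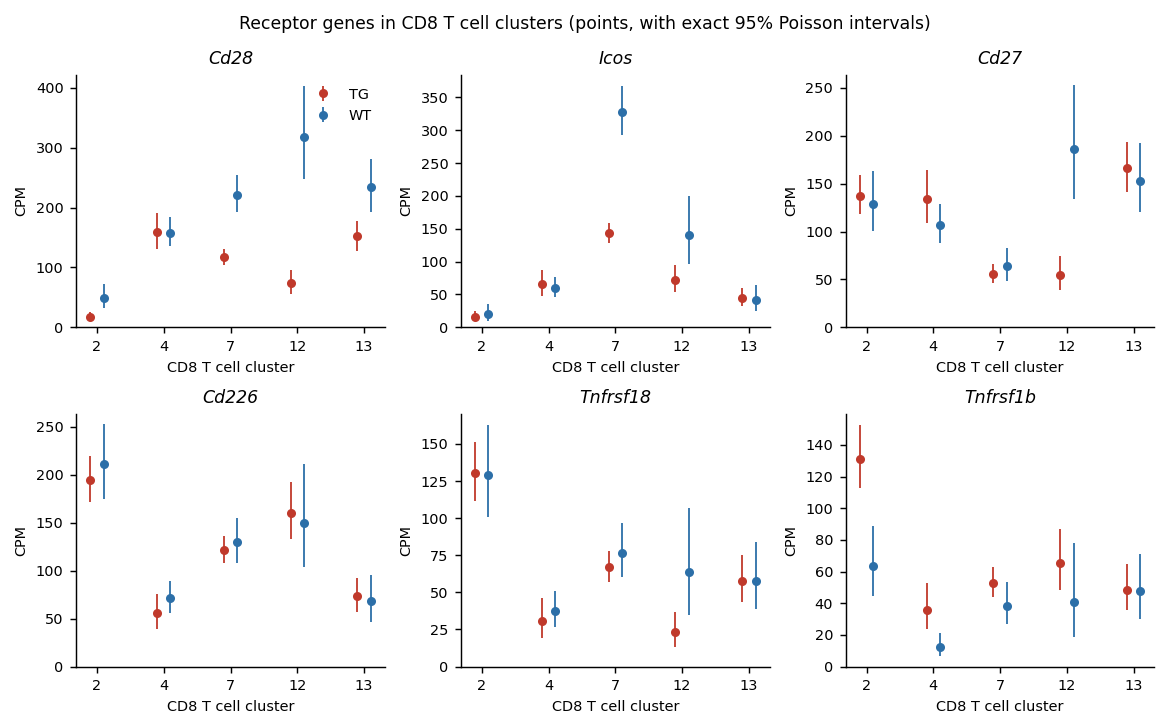
Level of 6 of the genes in cluster 2 (CD8aa) and the CD8ab clusters 4, 7, 12 and 13 in TG (red) and WT (blue), as CPM with exact 95% Poisson intervals. Icos peaked in WT cluster 7 at 328 CPM, and Cd28 and Cd27 in cluster 12 stood at 73.5 and 54.5 CPM in TG against 319 and 187 in WT.

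In mature B cells 3 of 9 counted members were past 2-fold, all lower in TG, beside 4.75% of all genes either way and 2.81% lower. These were the T cell genes Cd28, at 5.36 and 42.9 CPM, Icos, with a log2 ratio of -1.85, and Cd27 at -1.59. Cluster 17, with 2.72% of TG and 10.4% of WT mature B cells, held Cd3e at 728 and 609 CPM beside Cd79a at 2456 and 1954. Without it, a comparison added after seeing the data, Icos was at -0.97 and Cd27 at -0.57, both with intervals across 0. Cd28 was at -2.64 (-3.77 to -1.65) from 10 and 56 UMIs. Cd226 was at 1.07 from 14 and 6, with an interval across 0 (-0.40 to 2.74), so 2 of 9 were past 2-fold, beside 3.95%. Tnfrsf13c was lower in TG at -0.32 (-0.45 to -0.19), and at -0.46 (-0.60 to -0.33) without cluster 17, while Tnfrsf13b was at -0.06 (-0.25 to 0.14) and -0.16 (-0.37 to 0.04). In immature B cells 2 of 6 were past 2-fold, again Cd28 (-2.40, 5 and 22 UMIs) and Icos (-1.54, 7 and 17 UMIs), both lower in TG, beside 6.04% of all genes either way and 3.07% lower. T cell markers summed to 441 CPM in TG and 1009 in WT mature B cells and to 291 and 455 in immature B cells. Tnfrsf13c there was at -0.40 (-0.70 to -0.10) and Tnfrsf13b at -0.01 (-0.29 to 0.27), the same order of differences as in mature B cells.

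Cd28 and Icos were low in monocytes and macrophages, and both were lower in TG in monocytes. In macrophages the Cd28 interval crossed 0, and Icos, with 3 and 15 UMIs, was not counted. In monocytes 2 of 4 counted members were past 2-fold, both lower in TG, beside 10.6% of all genes either way and 5.51% lower, with Cd28 at -2.73 from 5 and 29 UMIs and Icos at -2.33 from 5 and 22. T cell markers summed there to 610 and 945 CPM. In macrophages 3 of 7 were past 2-fold, 2 of them higher in TG, beside 9.59% of all genes either way and 4.52% higher, with Cd28 at -1.18 (-2.73 to 0.11), Cd27 at 1.40 (0.23 to 2.59) from 15 and 13 UMIs and Tnfrsf1b at 1.02 (0.64 to 1.40) from 112 and 126. At 1000 UMIs per cell Cd27 turned to -0.74, and without mixed-lineage cells Tnfrsf1b was at 0.63. Tnfrsf1b did not separate the genotypes in monocytes, at 0.06 (-0.35 to 0.46). T cell markers in macrophages summed to 711 CPM in TG and 463 in WT, the other direction from monocytes. Their part in the Cd28 and Icos values was not tested.

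The antibodies gave a second readout of 2 members, as the authors' centred log ratio (natural log) per cell. The GITR median in CD4 T cells was 1.52 in TG and 0.815 in WT. It was 2.93 and 1.59 in Foxp3-positive cells, with medians of 115 and 22 counts per cell, and 1.36 and 0.784 in Foxp3-negative cells. By this median NKT cells, at 1.60 and 1.13, were above CD4 T cells as a whole and below the Foxp3-positive ones in both genotypes, and mature B cells were at 0.308 and 0.196. As a share of the summed antibody counts, GITR was higher in CD4 T than NKT cells in TG, at 2.72% against 1.58%. In WT this share was lower in CD4 T cells, at 0.569% against 1.02%. Within CD4 T cells, those with a Tnfrsf18 UMI had a median GITR of 2.01 against 1.29 without in TG, and 1.08 against 0.790 in WT. GITR was also higher in TG where Tnfrsf18 was not, at 1.05 and 0.610 in CD8aa T cells (log2 ratio of Tnfrsf18 0.02) and 0.875 and 0.481 in immature B cells (-0.20). In NK cells GITR was at 0.787 and 0.573 with Tnfrsf18 lower in TG at -0.46 (-0.73 to -0.18), and in mature B cells Tnfrsf18 was lower too, at -0.85 (-1.35 to -0.37). Macrophages were the exception among the types with 50 cells in both genotypes, at 0.410 and 0.451.

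CD28 antibody counts were low, with medians of 1 to 5 per cell in every class. The CD28 median was 0.479 in TG and 0.480 in WT CD4 T cells, 0.309 and 0.363 in CD8ab T cells, 0.239 and 0.286 in CD8aa T cells and 0.158 and 0.207 in mature B cells. As a share of the summed antibody counts, CD28 in CD8aa T cells went the other way, at 0.283% (0.264 to 0.303) in TG and 0.187% (0.170 to 0.206) in WT. By this share CD8ab T cells, at 0.143% and 0.183%, and mature B cells, at 0.111% and 0.124%, kept their direction. Monocytes, with Cd28 at 8.36 and 55.5 CPM, had a CD28 median of 0.416 and 0.508, close to that of CD4 T cells. Their share of antibody counts was higher, at 0.528% and 1.14% against 0.232% and 0.227% in CD4 T cells. CD4 T cells exceeded mature B cells by 1.21 in TG and 0.619 in WT for GITR, and by 0.321 and 0.274 for CD28. CD8ab T cells with a Cd28 UMI had a median of 0.385 against 0.275 without in TG and 0.405 against 0.325 in WT. In TG NKT cells (0.375 against 0.380) and TG CD8aa T cells (0.203 against 0.239, with 18 cells holding a UMI) the order was the other way.

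**Figure D5:**
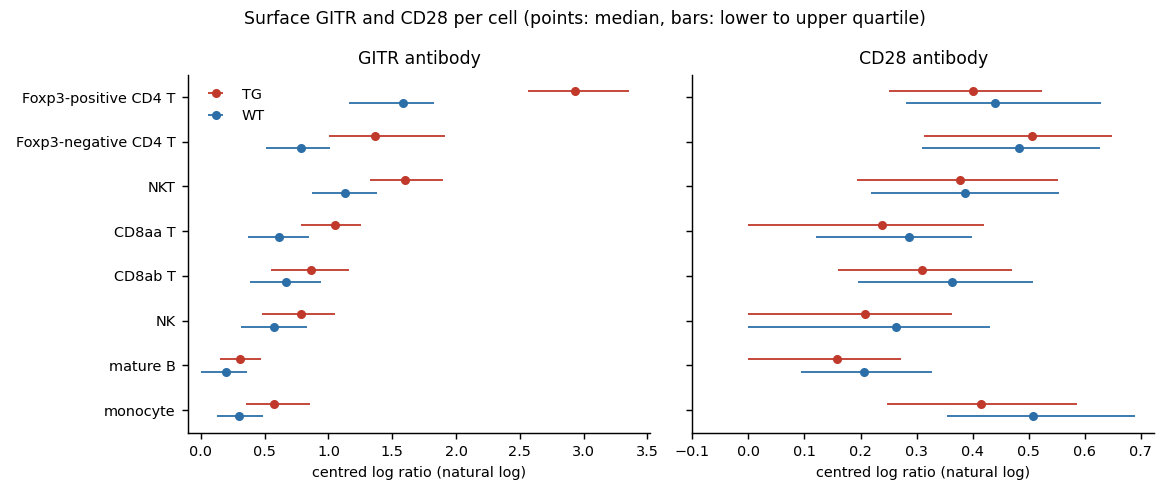
Antibody signal of GITR and CD28 per cell in TG (red) and WT (blue), as the centred log ratio on the natural log scale (points are medians over cells, bars run from the lower to the upper quartile). GITR was highest in TG Foxp3-positive CD4 T cells at 2.93, and CD28 medians of the plotted classes lay between 0.158 and 0.508.

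The partners of the receptors were taken from 4 lists. Of 12 ligands 8 were in the filtered table, and Cd70, Tnfsf18, Nectin2 and Tnfsf13 were not. In the same cells of a library file Cd70, Tnfsf18 and Nectin2 had at most 3 UMIs each. Tnfsf13 had 0 UMIs in WT, and no TG value was available for it. In CD4 T cells 1 of 4 counted ligands, 2 of 9 sister receptors, 0 of 20 TRAF, NF-kB and kinase genes and 2 of 7 regulatory T genes were past 2-fold, all higher in TG, beside the 5.41% of all genes higher. Icosl, the ligand of ICOS, was at 76.9 CPM in TG and 8.73 in WT CD4 T cells, a log2 ratio of 3.14. Icosl was highest in mature B cells, at 299 and 171 CPM (0.80, 0.66 to 0.95), and also higher in TG in CD8ab T (1.56), NKT (1.31) and NK cells (1.11). B cell markers were higher in TG in the same classes, at 123 and 57.5 CPM in CD4 T, 178 and 146 in CD8ab T, 94.0 and 33.2 in NKT and 128 and 62.3 in NK cells, and their part was not tested. Tnfrsf9 (4-1BB), a TNF receptor of activated T cells, was at 82.9 and 7.19 CPM in CD4 T cells (3.53, 2.69 to 4.47), and at 367 and 30.6 CPM among Foxp3-positive cells (3.58, 2.46 to 4.96). Of 6 sister receptors counted among Foxp3-positive cells 1 was higher and 2 were lower in TG, beside 11.8% of all genes either way and 6.2% higher. In all CD4 T cells Il2ra was at 1.84 and Ikzf2, a regulatory T cell transcription factor, at 1.54.

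Between Foxp3-positive and Foxp3-negative cells of TG, 3 of 8 counted sister receptors were higher and 2 lower, beside 17.9% of all genes either way and 7.74% higher. Of 3 counted ligands 0 were higher and 2 lower. Tnfrsf9 was at 367 against 11.8 CPM (4.95), and the inhibitory receptors Ctla4 and Tigit were at 3.42 and 3.24. Of the 20 signalling genes 2 were higher and 1 lower in TG, with Traf1 at 1.22, Nfkb2 at 1.18 and the NF-kB kinase Map3k14 at -2.32, and 0 higher and 2 lower in WT, beside 17.9% and 18.9% of all genes either way. In cluster 2 against cluster 7 of TG 5 of the 20 were higher and 0 lower, beside 14.7% of all genes higher and 10.7% lower. They were Traf2, Birc2, Nfkb2, Relb and Pik3cd, at 1.00 to 1.39. In WT 2 of 20 were past 2-fold, beside 27.2% of all genes, with Birc3 at 1.36 and Pik3cd at 1.34. Tnfsf4, the OX40 ligand, had 4 UMIs in the named TG cells and 20 in the named WT cells of the library files. Tnf, which binds TNFR2, was at 291 and 381 CPM in monocytes and 252 and 239 in macrophages. Tnfsf13b, which encodes BAFF, was at 56.4 and 87.1 CPM in neutrophils (54 and 17 cells) and 28.4 and 23.0 in monocytes. Tnfrsf17 (BCMA), a further BAFF family receptor, was at 168 CPM in the 38 TG cells named other, which carried plasma cell markers at 28717 CPM. It is listed at 0 in all WT cells of the filtered table but had 56 UMIs in these WT cells in the library file, beside 65 in TG, so no genotype difference is given.

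The genes most alike in pattern were found by Pearson correlation of log2(CPM + 10) over 21 profiles of 12 cell types by genotype, which share 2 libraries, and they are a description. Tnfrsf4 was nearest to Il1rl1 (r = 0.94), the IL-33 receptor, then Foxp3 (0.86) and Ccr4 (0.82). Cd226 was nearest to Il2rb (0.98), Cd27 to Lck (0.96), Cd28 to Cd5 (0.92), Icos to Rora (0.94), Tnfrsf18 to Sdf4 (0.94), and Tnfrsf1b to Metrnl (0.93). Tnfrsf13b was nearest to Spib (0.95), a transcription factor of B cells and pDC, and Tnfrsf13c to H2.DMb2 (0.97), a chaperone of antigen presentation. Among the members Cd27 and Tnfrsf18 (0.94), Cd27 and Cd226 (0.91), Tnfrsf18 and Cd226 (0.90) and Cd28 and Icos (0.88) were most alike, and Tnfrsf1b and Tnfrsf13b (-0.60) were the least. Tnfrsf4 had its highest correlation within the set with Icos (0.63) and lay at 0.54 with its chromosomal neighbour Tnfrsf18.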

How the data were processed

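CD45+ liver cells were captured with BD Rhapsody. The authors aligned reads with STAR, in the pipeline of that platform, to mm10 (per the labels) and deposited UMI counts per gene and per antibody, for each library and in a filtered table of named cells. How doublets were treated is not given in the sources used here. Antibody values deposited by the authors are natural log centred ratios, and mitochondrial shares are in percent. Cell types, clusters and genotypes are those of the deposited cell table, made after integration in Seurat, and the deposited normalised RNA values were not used. The members and lists were chosen with earlier results of these data known.

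Counts of the filtered table were summed per genotype and cell type or cluster and scaled to CPM. Member values were identical in the library files for the same cells, but other rare genes can be listed at 0 in 1 genotype of the filtered table with UMIs in the library file. A gene was counted with at least 20 UMIs over both profiles and called past 2-fold by its ratio alone, since 1 library per genotype allows no test. Cell types with at least 50 cells per genotype entered the comparisons, while splits within a type had no such minimum, so the Foxp3-positive CD4 T cells and cluster 21 have fewer in TG. Named genes were the members, the 3 genes nearest to each in pattern (genes with at least 200 UMIs, pseudocount of 10 CPM) and the lists, of which the text gives those that mattered. Alternatives were TMM scaling (edgeR 4.0.16, R 4.3.3), each cell weighing the same, totals less ribosomal and mitochondrial genes, thinning to 1000 UMIs, mixed-lineage cells left out (at least 2 UMIs of each of 2 lineages), the library files, no minimum count, and other cell sets. The ratio code was tested on simulated data. Python 3.11.15 with numpy 2.4.6, scipy 1.17.1 and pandas 2.3.3 was used. Sorted-cell, receptor repertoire and flow cytometry data of the study were not analysed here.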

Additional observations from a re-analysis of the deposited data

Results flagged for a closer look

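The cells of the libraries without a genotype name, 5379 in the first pool and 16829 in the second, stand for no genotype and entered no comparison between TG and WT. They were set beside the named cells of their own library, and a signal in them drew attention. The second pool also held P40-/-IL-2Ra-/- mice, and Il2ra was at 14.5 CPM in its unnamed CD4 T cells against 105 in WT (-2.86), and at 8.12 against 94.0 in all T cells (-3.53). Gated on lineage UMIs (at least 2 UMIs of Cd3d, Cd3e or Cd3g, none of 3 B cell genes, Cd4 without Cd8a or Cd8b1), unnamed CD4 T cells of the second pool held Tnfrsf4 at 47.6 CPM from 286 UMIs, above the 15.8 CPM from 50 UMIs in the WT cells of the same library. The log2 ratio was 1.59 (1.15 to 2.06). Among those with a Foxp3 UMI, 107 unnamed and 44 WT cells, Tnfrsf4 was at 271 and 65.0 CPM (2.06) and Tnfrsf18 at 506 and 208 CPM (1.28). Tnfrsf18 was lower in unnamed Foxp3-negative CD4 T cells of that pool, at -0.49 (-0.68 to -0.31), and in CD8 T cells, at -0.85. Over the whole CD4 T gate it was at -0.15 (-0.32 to 0.03), and in all T cells at -1.04 (-1.12 to -0.95). The T cells differed in makeup, with 8219 of 11872 unnamed and 849 of 3888 WT cells in the CD8 T gate. The part of this makeup in the values of all T cells was not tested. The CD4 T gate takes in cells of other deposited names, since it held 684 named TG and 1020 named WT cells against 238 and 734 named CD4 T, so its levels differ from those of the cell type. In the first pool unnamed and TG cells of the gate held Tnfrsf4 at 41.7 and 46.8 CPM, and among those with a Foxp3 UMI, 25 cells each, Tnfrsf4 was lower in unnamed cells, at 155 and 511 CPM (-1.72), as was Tnfrsf18 at 223 and 728 (-1.71). Cd226 was lower in unnamed T cells of the second pool, at 42.9 against 189 CPM (-2.14, -2.23 to -2.05), and at -1.83 in the CD4 T and -1.79 in the CD8 T gate. Among Foxp3-positive CD4 T cells it was higher in unnamed cells, at 75.9 against 32.5 CPM, with an interval across 0 (1.22, -0.14 to 2.94). Over 4 gates and both pools 71 gate and member pairs were counted and 10 were past 2-fold. Over all genes the shares past 2-fold in the T, CD4 T, CD8 T and B cell gates were 5.69%, 5.96%, 5.44% and 6.1% in the first pool and 14%, 12.6%, 13.2% and 6.2% in the second.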

How the results depend on the processing

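The 17 pairs of a member and a cell type past 2-fold between TG and WT became 10 when each cell was thinned to 1000 UMIs, which leaves fewer UMIs to reach the minimum, 11 without mixed-lineage cells, and 9 without the largest cluster of each type, where 3 types of 1 cluster, with 6 of the pairs, drop out by construction. Other settings gave 15 to 21. The 5 members past 2-fold between Foxp3-positive and Foxp3-negative WT cells became 3 within cluster 9, and the 7 between cluster 2 and cluster 7 of TG became 3 after thinning. The cell type with the highest level over the cells of both genotypes pooled, whose shares differ by type, the same for 9 of 9 members with equal weight per cell, was the same for 5 in TG alone. By the mean of both genotypes Cd27 was highest in CD4 T cells (144 CPM) and not CD8aa T cells (133). In TG alone Cd27, Tnfrsf18 and Icos were highest in CD4 T cells and Tnfrsf13b in immature B cells, and γδ T cells and pDC, the highest for Icos and Tnfrsf13b over both genotypes, have under 50 TG cells. Of 444 settings over 73 single ratios, 416 moved a ratio within its interval, 26 moved it further, and 2 reversed it, both by thinning: Cd27 in macrophages, from a log2 ratio of 1.40 to one of -0.74, and Tnfrsf13b in cluster 6, from -1.34 to 0.32. All 73 were past 2-fold as reported, and 51 of the 444 settings put one under 2-fold or reversed it. Tnfrsf4 in CD4 T cells had a log2 ratio of 1.898 to 2.62 between TG and WT over these settings, of 1.86 within Foxp3-negative cells, 1.62 within cluster 21 and 1.60 within cluster 9, and one of 3.01 to 3.40 in TG and 2.81 to 3.09 in WT between Foxp3-positive and Foxp3-negative cells. The split by Foxp3 within cluster 9 of TG rests on 1 Foxp3-positive cell. No paired analysis was possible because each genotype is 1 library. Depth limits ratios with under about 20 UMIs, and all intervals leave out variation between mice.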
